A study of Mus musculus with 14 samples.

Results

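Prostaglandins are lipid signals made from arachidonic acid, and in the colon they act in mucosal repair, blood flow, secretion and inflammation. The genes described here were 10 members of that pathway, taken by name and matched to array probes through the RefSeq accession printed for each probe. They were Pla2g4a, Ptgs1, Ptgs2, Ptges, Ptges2, Ptgis, Hpgd, Ptger1, Ptger2 and Ptger4. Of the 10 genes, 9 had a probe, with 12 probes in all, among 15540 genes and 29523 probes tested. No probe carried an accession of Ptger1, the EP1 receptor for prostaglandin E2, so it has no value here. All 12 probes were well above background on all 14 arrays, so no member was lost to a filter on dim signals.

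The data were collected from whole colons of female C57BL/6 mice aged 4 to 6 months, with 1 mouse on each 1-colour array. Flox mice carried GR fl/fl, alleles of the glucocorticoid receptor gene Nr3c1 flanked by loxP sites, without Cre. GR iKO mice carried the same GR fl/fl alleles together with Villin-cre, which is active in intestinal epithelial cells, so that GR was deleted there while other colon cells kept it. For 7 days the drinking water was either plain or held 2.5% dextran sulfate sodium (DSS), a polymer that damages the lining of the colon and brings on colitis. There were 4 mice of each genotype on water and 3 mice of each genotype on DSS. Because whole colon was measured, more cells of a type and more RNA per cell cannot be told apart.

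The pathway runs in steps. Cytosolic phospholipase A2 (Pla2g4a) releases arachidonic acid from membranes, and the cyclooxygenases COX-1 (Ptgs1) and COX-2 (Ptgs2) turn it into prostaglandin H2. Terminal synthases then make the active products, with Ptges and Ptges2 giving prostaglandin E2 and Ptgis giving prostacyclin. Hpgd, 15-hydroxyprostaglandin dehydrogenase, starts the breakdown of prostaglandin E2, and the EP receptors encoded by Ptger1, Ptger2 and Ptger4 carry its signal into cells. Glucocorticoids acting on GR are known to repress Ptgs2 in many cell types, and COX-2 and microsomal prostaglandin E synthase (Ptges) are known to be induced together in inflamed tissue.

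RefSeq promoter windows of build GRCm38.p6 were found for 8 of the 10 members, and the 250 bases before the annotated start are shown for Ptgs2 and Ptges, which had the largest differences between genotypes on DSS, and for Hpgd, which fell in both. The Ptgs2 window is chr1:150099781-150100030 on the + strand, the Ptges window is chr2:30903298-30903547 on the - strand and the Hpgd window is chr8:56294302-56294551 on the + strand. Each is written 5′ to 3′ along the gene, and capitals mark matches to the motifs named after the sequences.
Ptgs2: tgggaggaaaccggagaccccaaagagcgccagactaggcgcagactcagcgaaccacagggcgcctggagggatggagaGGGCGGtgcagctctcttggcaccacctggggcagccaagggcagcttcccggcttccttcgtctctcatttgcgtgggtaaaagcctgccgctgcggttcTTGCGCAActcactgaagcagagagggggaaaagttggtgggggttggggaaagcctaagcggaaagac
Ptges: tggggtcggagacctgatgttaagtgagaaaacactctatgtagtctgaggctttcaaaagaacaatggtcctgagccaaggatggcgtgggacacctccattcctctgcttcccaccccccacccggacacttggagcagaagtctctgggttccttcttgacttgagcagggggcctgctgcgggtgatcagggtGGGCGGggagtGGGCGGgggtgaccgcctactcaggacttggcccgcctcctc
Hpgd: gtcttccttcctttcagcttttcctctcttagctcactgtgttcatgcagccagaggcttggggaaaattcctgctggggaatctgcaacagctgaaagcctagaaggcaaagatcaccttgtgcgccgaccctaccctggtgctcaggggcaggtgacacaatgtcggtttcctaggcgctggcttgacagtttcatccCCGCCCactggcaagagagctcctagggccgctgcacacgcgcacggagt

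Both strands were searched for the C/EBP motif (TTNNGCAA), the core of the cAMP response element (TGACGT), the E-box (CACGTG), the AP-1 motif (TGANTCA), the GC box (GGGCGG), the TATA box (TATAAA), the NF-kB motif and the glucocorticoid response element. Before its start, Ptgs2 held 1 C/EBP match, beginning at position -69, and 1 GC box at position -170. A C/EBP match stood in 9.56% of the 32851 promoter windows of the same length and a GC box in 32.7% of them. Ptges held 2 GC boxes, at positions -53 and -42, and Hpgd held 1, at position -50. In the 50 bases after its start, Ptgs2 had a cAMP response element core beginning at position 13 and an E-box beginning at position 17, which share bases. Hpgd had a TATA box beginning at position 5 after its start. With those 50 bases included, 7.51% of all windows held a cAMP response element core, 7.15% an E-box and 13.6% a TATA box. None of these 3 windows held the letters searched for NF-kB, AP-1 or the glucocorticoid response element. This says only that those letters are not in this stretch. With the same 50 bases included, 8.46% of all windows held the NF-kB letters and 7.81% the AP-1 letters. The glucocorticoid response element letters stood in only 3 of the 32851 windows (0.00913%). Their absence here therefore cannot tell these promoters from almost any other.

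Levels are given as log2 of the processed signal minus that array's 75th percentile, so that 0 is the signal below which 75% of the probes on the array lie. A probe's level is compared with itself across arrays and never with another probe. The 75th percentile ranged from 262 to 1003 intensity units, and the share of probes well above background ranged from 62.6% to 71.3%. The lowest percentile was that of Flox DSS replicate 4. The spread between mice was larger on DSS, with a median SD per probe of 0.26 in Flox and 0.34 in GR iKO, against 0.18 and 0.17 on water. Nr3c1, the targeted gene, stood in GR iKO at 57.3% of Flox on water (exact two-sided permutation p = 0.0286) and at 56.1% on DSS (exact permutation p = 0.1), in both cases the smallest p that the number of arrays allows, with an adjusted limma p of 0.293 and 0.226. Over its 4 probes the level in GR iKO was 47.6% to 57.3% of Flox on water (adjusted limma p from 0.0364 to 1, with 1 of 4 past the test) and 55.2% to 75.7% on DSS (adjusted limma p from 0.226 to 0.666), and 3 of 4 probes were lower without overlap in either case. Where the probes lie relative to the floxed part was not determined. All 10 epithelial and all 6 smooth muscle markers were well above background on every array. Each group sat at a position of its own that was the same on every slide, so position on the slide and group cannot be told apart.

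On DSS, most of the pathway moved in both genotypes. In Flox, 8 of the 9 measured members passed the test (limma, Benjamini-Hochberg adjusted p under 0.05), 5 of them higher and 3 lower, against 52.6% of all probes (24.4% higher and 28.2% lower), and 7 of 9 had groups that did not overlap, against 57.4% of all probes. In GR iKO, 9 of 9 passed, 5 higher and 4 lower, against 44.5% of all probes (22% higher and 22.5% lower), and 9 of 9 had groups that did not overlap, against 46.3%. The members' median difference was 0.52 in Flox and 1.05 in GR iKO, beside -0.09 and -0.02 over all probes. Since so many of all probes changed with DSS, the counts say little of the pathway itself, and the account below is of the single genes and their sizes.

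**Figure D1:**
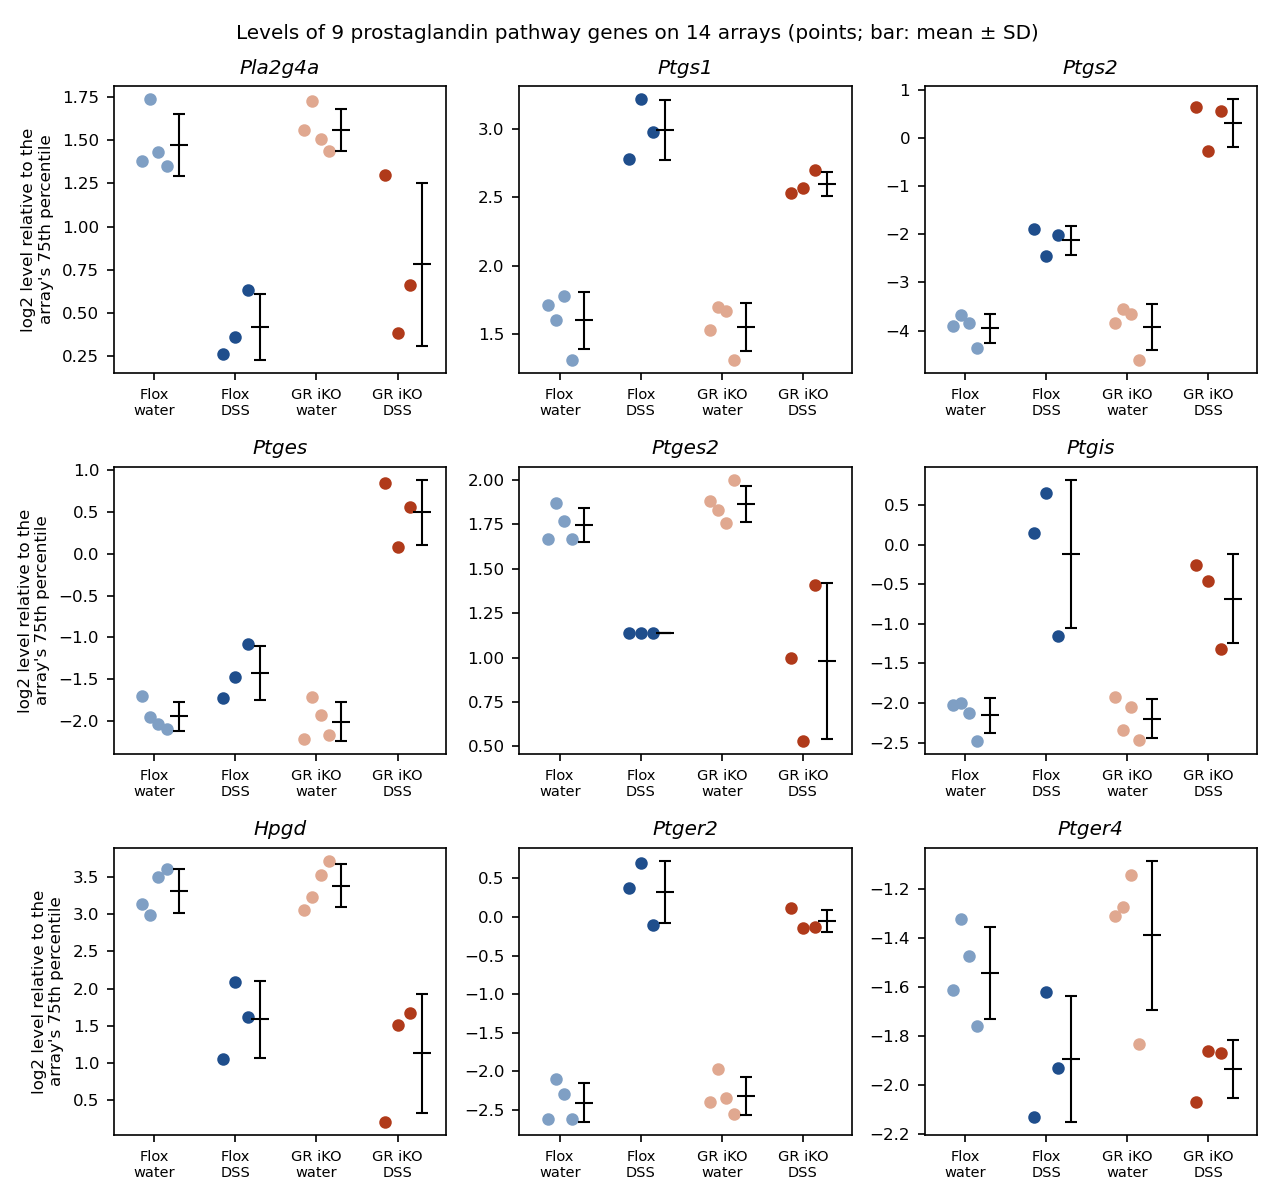
Log2 level of each of the 9 measured genes (y axis, with the array's 75th percentile at 0, on a scale of its own in each panel) for the 14 mice in 4 groups (x axis), with the mean and SD beside the points. In the panels of Ptgs2 and Ptges the 3 GR iKO mice on DSS stand above all other mice, whereas Ptgs1, Ptgis and Ptger2 were raised on DSS in both genotypes and Hpgd was lowered.

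Pla2g4a, which provides the substrate, was lower on DSS. Its level was 1.35 to 1.74 in the 4 Flox mice on water and 0.26, 0.36 and 0.63 in the 3 on DSS. In GR iKO it was 1.44 to 1.73 on water and 1.30, 0.38 and 0.66 on DSS. No DSS value reached a water value of the same genotype, although GR iKO DSS replicate 1 came close. In Flox it fell by 1.06 ± 0.19 log2 units (mean ± SE), to 48.1% of the water level (adjusted p = 0.000693), and in GR iKO it fell by 0.78 ± 0.19, to 58.2% (adjusted p = 0.00616). A second probe gave the same direction and calls.

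The COX genes both rose, and this included Ptgs1, the form usually described as constitutive, in either genotype. Ptgs1 stood at 1.31 to 1.78 in Flox on water and at 2.78, 3.22 and 2.98 on DSS. In GR iKO it stood at 1.31 to 1.70 on water and at 2.53, 2.57 and 2.70 on DSS. Water and DSS values were separated by more than the range of either group. The DSS response was 1.40 ± 0.15 in Flox (2.63-fold, adjusted p = 1.39e-05) and 1.05 ± 0.15 in GR iKO (2.07-fold, adjusted p = 0.00017). The 2 responses differed by -0.35, with a 95% confidence interval from -0.81 to 0.11, which does not show that they are alike.

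Ptgs2, the inducible COX, showed the widest range of any member. The Flox mice on water read -3.91, -3.67, -3.85 and -4.37, and the Flox mice on DSS read -1.90, -2.46 and -2.02. The GR iKO mice on water read -3.84, -3.56, -3.66 and -4.61, and those on DSS read 0.64, -0.27 and 0.55. The water groups lay on top of each other, the Flox DSS mice stood above both, and all 3 GR iKO DSS mice stood above all 3 Flox DSS mice. The rise on DSS was 1.83 ± 0.29 in Flox (3.54-fold, adjusted p = 0.000243) and 4.22 ± 0.29 in GR iKO (18.7-fold, adjusted p = 1.5e-06). The probe was printed 10 times on each array, and the 7 to 10 usable spots varied with a CV of 3.03% to 15.1%. Before scaling its mean intensity was 35.5 to 78.9 units in Flox on water, 64.8 to 123 in Flox on DSS, 30.4 to 67.3 in GR iKO on water and 464 to 1110 in GR iKO on DSS. The unscaled Flox groups thus overlapped, while the GR iKO groups did not. The second Ptgs2 probe gave the same directions and calls.

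Among the terminal synthases, Ptges, like Ptgs2, was highest in GR iKO mice on DSS. It read -1.70, -1.95, -2.04 and -2.10 in Flox on water and -1.73, -1.47 and -1.08 in Flox on DSS. It read -2.22, -1.72, -1.93 and -2.17 in GR iKO on water and 0.85, 0.08 and 0.56 in GR iKO on DSS. One Flox mouse on DSS fell within the Flox water range, whereas every GR iKO mouse on DSS was above every other mouse. The DSS response was 2.51 ± 0.21 in GR iKO (5.69-fold, adjusted p = 4.46e-06). In Flox it was 0.52 ± 0.21 (1.44-fold, adjusted p = 0.0498), a call that was lost in 16 of 25 alternative settings and turned in 1. Leaving out Flox water replicate 2, 3 or 4, Flox DSS replicate 2 or 4, GR iKO water replicate 1, 3 or 4, or GR iKO DSS replicate 4 was enough to end it (adjusted p from 0.0558 to 0.195), and without Flox DSS replicate 4 the difference was 0.35.

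Ptges2, the other prostaglandin E synthase, went the other way. It stood at 1.67 to 1.87 in Flox on water and at 1.14 in each of the 3 Flox mice on DSS. In GR iKO it stood at 1.76 to 2.00 on water and at 1.00, 0.53 and 1.41 on DSS. Ptges2 fell by 0.61 ± 0.16 in Flox (adjusted p = 0.00812), whereas in GR iKO it fell by 0.89 ± 0.16 (adjusted p = 0.000992), without overlap in either genotype. Ptgis, prostacyclin synthase, rose by 2.04 ± 0.37 in Flox (4.12-fold, adjusted p = 6e-04) and by 1.51 ± 0.37 in GR iKO (2.86-fold, adjusted p = 0.00535). Its DSS values were spread, at 0.15, 0.66 and -1.15 in Flox and -0.26, -0.46 and -1.32 in GR iKO, with the lowest from replicate 4 in either case, but all lay above the water values of -2.48 to -1.93.

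Hpgd, the breakdown enzyme, was the member that fell furthest. It read 3.14, 2.99, 3.50 and 3.61 in Flox on water and 1.05, 2.09 and 1.62 on DSS. It read 3.06, 3.23, 3.52 and 3.71 in GR iKO on water and 0.21, 1.51 and 1.67 on DSS. Every DSS mouse was below every water mouse, and GR iKO DSS replicate 1 was the lowest. The fall was 1.72 ± 0.34 in Flox (to 30.3% of the water level, adjusted p = 0.00119) and 2.25 ± 0.34 in GR iKO (to 21% of the water level, adjusted p = 0.000273). The responses differed by -0.53, with a 95% confidence interval from -1.58 to 0.52. A second Hpgd probe gave the same directions and calls.

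Of the receptors, Ptger2 (EP2) rose and Ptger4 (EP4) did not. Ptger2 read -2.61 to -2.10 in Flox on water and 0.37, 0.70 and -0.10 on DSS, and it read -2.55 to -1.97 in GR iKO on water and 0.12, -0.14 and -0.13 on DSS. The gap between water and DSS was wider than the range within any group. The response was 2.73 ± 0.20 in Flox (6.61-fold, adjusted p = 1.39e-06), the largest of the 9 members in that genotype, and 2.26 ± 0.20 in GR iKO (4.8-fold, adjusted p = 7.54e-06). Ptger4 differed by -0.35 ± 0.18 in Flox (adjusted p = 0.118), where its values of -2.13, -1.62 and -1.93 on DSS overlapped those of -1.76 to -1.32 on water. In GR iKO it fell by 0.55 ± 0.18 (adjusted p = 0.0256), from -1.83 to -1.14 on water to -2.07, -1.86 and -1.87 on DSS, and 7 of 25 alternatives lost that call (highest adjusted p = 0.0884), among them leaving out GR iKO water replicate 1, 2 or 3 or GR iKO DSS replicate 1 (adjusted p from 0.0566 to 0.077).

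**Figure D2:**
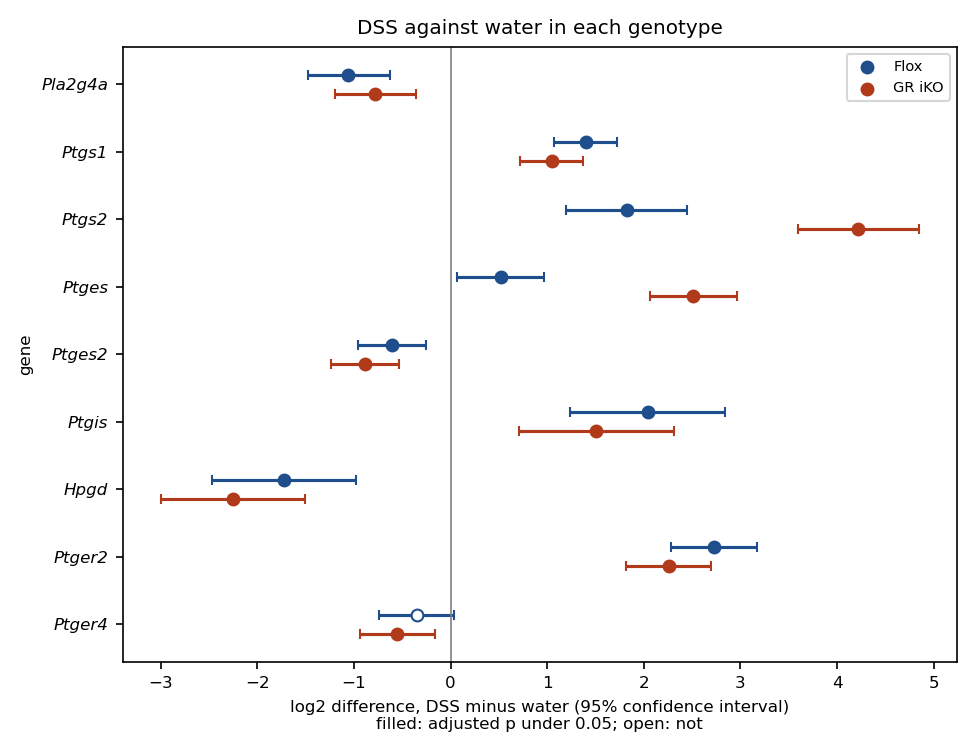
Difference between DSS and water (x axis, log2 units, with 95% confidence intervals) for each of the 9 genes (y axis) in both genotypes, with filled points for an adjusted p under 0.05 and an open point for one above. The intervals of the 2 genotypes are apart for Ptgs2 and Ptges and overlap for the other 7 genes.

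These sizes depend on the scale. Scaling the arrays to the spike-in transcripts in place of the 75th percentile moved the median of all probes to -2.44 in Flox and -0.98 in GR iKO, and turned Ptgs1, Ptgs2, Ptges and Ptgis in Flox to -0.96, -0.53, -1.84 and -0.31. Relative to that median they stood at 1.48, 1.91, 0.60 and 2.13, close to the values relative to the median on the main scale. In the same setting Ptgs1 (limma, adjusted p = 0.0206) and Ptges (adjusted p = 0.000153) were called lower in Flox. Ptger4, not called in Flox on the main scale, was called lower too (-2.71, adjusted p = 1.73e-06). Ptger2 in Flox (0.37) and Ptgs1 and Ptgis in GR iKO (0.09 and 0.56) kept their direction and lost their calls, and no member turned in GR iKO. The balance of calls over all probes moved as well, from 7205 higher and 8338 lower in Flox to 313 and 26118 with spike-in scaling and to 10728 and 5767 with normexp background correction. In GR iKO it moved from 6491 and 6651 to 1118 and 15852 with spike-in scaling. The rises and falls above are therefore relative to the bulk of the probes on the array.

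Several cell type markers moved on DSS too, and their part in these results was not tested. Beside the falls of Hpgd and Pla2g4a, of 10 epithelial markers 1 rose and 4 fell in Flox and 1 rose and 1 fell in GR iKO, with a summed level (linear, as multiples of the 75th percentile) of 1110 to 1330 in the mice on water, 831 to 1310 in Flox on DSS and 1140 to 1620 in GR iKO on DSS. Beside the rises of Ptgs1, Ptgis and Ptger2, 7 of 8 fibroblast markers rose and 1 fell in each genotype, and their summed level went from 96.9 to 139 on water to 260 to 390 in Flox and 240 to 295 in GR iKO on DSS. Smooth muscle markers rose in 6 of 6 cases in Flox and in 0 of 6 in GR iKO, where their summed level of 353 to 823 lay across the water range. Macrophage markers rose in 6 of 8 cases in Flox and 7 of 8 in GR iKO, with summed levels of 13.2 to 19.6 on water, 22.1 to 38.7 in Flox on DSS and 33 to 67.8 in GR iKO on DSS. The summed levels of the DSS groups overlapped, and the median difference of these markers between genotypes on DSS was -0.06 log2 units. At an unadjusted limma p under 0.05 stood 1 of 8, beside 16.2% of all probes. Endothelial markers rose in 2 of 6 cases in Flox and 1 of 6 in GR iKO. Of the markers of tuft cells, which are known to express Ptgs1 and Hpgds, 1 of 5 tested fell in Flox and 3 of 5 in GR iKO, and none rose. The defining tuft cell gene Pou2f3 was not well above background on any array.

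On water, none of the 9 members passed the test between genotypes. Differences between GR iKO and Flox lay between -0.06 and 0.15 log2 units, 0 of 9 passed the test in limma (adjusted p = 1 for each, and 0 of 9 at an unadjusted p under 0.05), and the groups overlapped for all 9. Over all probes 0.0102% were called, 3.04% had an unadjusted p under 0.05 and 2.26% had groups that did not overlap. Ptger4 differed by 0.15, Ptges2 by 0.12, Pla2g4a and Ptger2 by 0.09 each, Ptgis by -0.04 and Ptgs1 by -0.05. The intervals bound what could have been missed. The interval of Ptgs2 ran from -0.54 to 0.61, that of Ptges from -0.38 to 0.26 and that of Hpgd from -0.36 to 0.50. On slides that held both genotypes, the within-slide difference of Ptgs2 ran from -0.25 to 0.25 over 4 slides.

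On DSS, Ptgs2 and Ptges were higher in GR iKO than in Flox without overlap between the mice, but neither passed the adjusted test over 6 arrays. Ptgs2 was higher by 2.43 ± 0.31 log2 units (5.38-fold, 95% confidence interval from 1.69 to 3.17), with an unadjusted limma p of 0.000156 and an adjusted p = 0.226. Ptges was higher by 1.93 ± 0.28 (3.8-fold, 95% confidence interval from 1.25 to 2.60), with an unadjusted limma p of 0.000341 and an adjusted p = 0.226. Over all 29523 probes 0% were called in this comparison, and 16.2% had an unadjusted p under 0.05, against 2 of 9 members. Among the members 3 of 9 did not overlap, the other one being Ptgs1, which stood 0.40 lower (adjusted p = 0.361), against 22.8% of all probes. When the spread was instead taken over all 14 arrays, Ptgs2 (adjusted p = 0.00459) and Ptges (adjusted p = 0.00355) passed together with 13.2% of all probes. The water mice, which varied less, enter that spread.

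On the slides with both genotypes on DSS, GR iKO was higher than Flox for both genes on 2 of 2 slides, by 1.63 and 2.57 for Ptgs2 and by 1.65 and 1.81 for Ptges. With slide as a block the differences were 2.10 and 1.73 (adjusted p = 0.756 for both). The other 7 members did not pass. Pla2g4a differed by 0.36, Ptger4 by -0.04, Ptges2 by -0.16, Ptger2 by -0.37, Ptgs1 by -0.40, Hpgd by -0.46 and Ptgis by -0.57. The widest intervals reached -1.83 for Ptgis and -1.57 for Hpgd, so that for those genes a difference of that size is not excluded, while that of Ptger4 ran from -0.53 to 0.45.

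**Figure D3:**
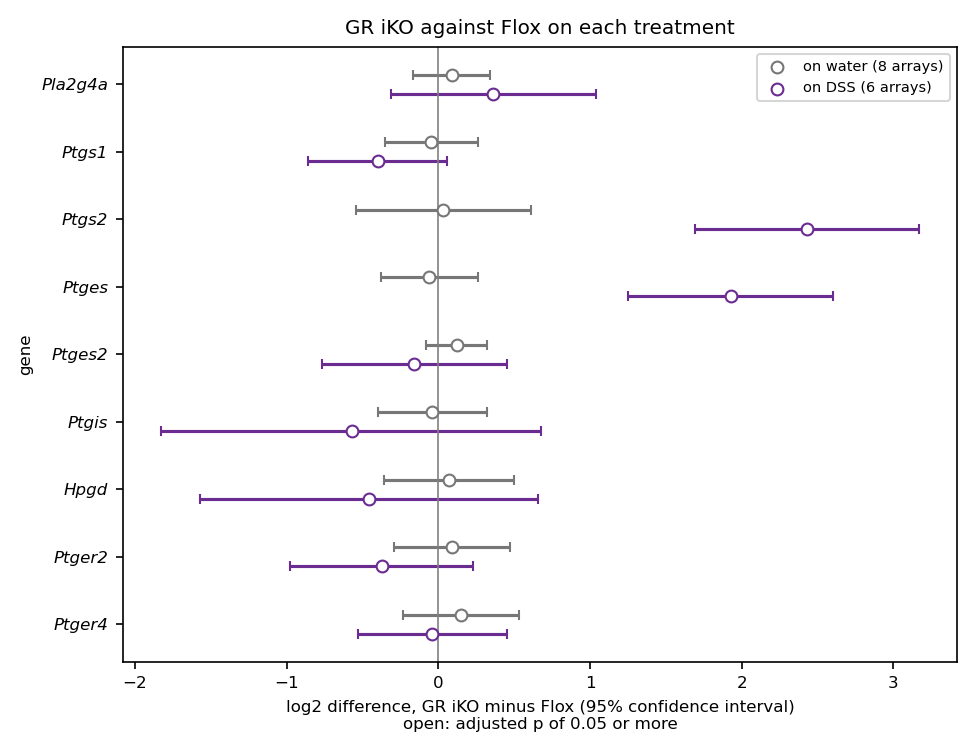
Difference between GR iKO and Flox (x axis, log2 units, with 95% confidence intervals) for each of the 9 genes (y axis) on water, over 8 arrays, and on DSS, over 6 arrays. All points are open because none had an adjusted p under 0.05, and on DSS the intervals of Ptgs2 (1.69 to 3.17) and Ptges (1.25 to 2.60) lie away from 0.

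The test of the difference between the DSS responses, over all 14 arrays, called 1 of 9 members against 0.112% of all probes. At an unadjusted limma p under 0.05 stood 2 of 9 members, near the 19.2% of all probes. The Ptges response was 1.99 ± 0.29 log2 units larger in GR iKO than in Flox (95% confidence interval from 1.35 to 2.62, adjusted p = 0.0413). That of Ptgs2 was 2.40 ± 0.41 larger (95% confidence interval from 1.51 to 3.29) and had an adjusted p = 0.0514. Both lay at the edge of the threshold. The water mice, which varied less, enter the spread behind these intervals and p-values. With separate variance weights for water and DSS arrays, the Ptges call was lost (limma, adjusted p = 0.11), and 0 of all probes were called. Over 25 alternatives, Ptges passed in 12, with adjusted p from 0.00386 to 0.126, and Ptgs2 passed in 10, with adjusted p from 0.00248 to 0.138, while the direction held in all of them. With slide as a block neither passed (adjusted p = 0.126 for Ptges and 0.13 for Ptgs2). Leaving out any of the 8 water arrays or Flox DSS replicate 2 ended the call of Ptges (adjusted p from 0.0642 to 0.119). Ptgs2 passed without Flox DSS replicate 1 (adjusted p = 0.044) or 4 (0.0178) and without GR iKO DSS replicate 3 (0.0115) or 4 (0.0442). Of the remaining 7 members none passed (lowest adjusted p = 0.393). Their responses differed by 0.28 for Pla2g4a, -0.20 for Ptger4, -0.28 for Ptges2, -0.35 for Ptgs1, -0.46 for Ptger2 and -0.53 for Ptgis and Hpgd.

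The order of the groups is given here by their levels, and not every step passed a test. For Ptgs2 the water groups were lowest and did not differ beyond their spread, Flox on DSS came next and GR iKO on DSS was highest, with no overlap at either step. For Ptges the water groups and Flox on DSS overlapped, and GR iKO on DSS stood above them. The step between the DSS groups passed the adjusted limma test for neither Ptgs2 nor Ptges (adjusted p = 0.226 for both). For Ptgs1, Ptgis and Ptger2 the water groups were below the DSS groups, with Flox above GR iKO on DSS by 0.40, 0.57 and 0.37, none of them past the test. For Hpgd and Ptges2 the water groups were above, and Flox was above GR iKO on DSS by 0.46 and 0.16, also not past the test. Neither of these last directions was stable. Within slides Hpgd was higher in GR iKO on 2 of 2 slides (0.05 and 0.46), and Ptges2 on 1 of 2 (-0.60 and 0.27).

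Neutrophil markers moved in the same direction as Ptgs2 and Ptges. Of 7 tested, 6 rose on DSS in Flox and 7 in GR iKO, and their summed level was 0.171 to 0.668 times the 75th percentile on water, 24.3 to 67.1 in Flox on DSS and 79.3 to 285 in GR iKO on DSS, without overlap between the DSS groups. Between genotypes on DSS their median difference was 2.05 log2 units, and 0 of 7 passed the adjusted limma test while 7 of 7 had an unadjusted p under 0.05, all higher in GR iKO. The smooth muscle markers had a median difference of -1.34 between genotypes on DSS, with 0 of 6 past the adjusted limma test and 6 of 6 at an unadjusted p under 0.05, all on the lower side in GR iKO. Over all probes 16.2% had an unadjusted limma p under 0.05 in this comparison. Epithelial markers had a median difference of 0.54, with 0 of 10 past the adjusted limma test. At an unadjusted p under 0.05 stood 2 of those 10, both higher in GR iKO. The part of any of these cell types in the difference of Ptgs2 and Ptges was not tested, and Ly6g, a defining neutrophil gene, had no probe.

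The genes whose levels over the 14 arrays were most like those of 4 members were found by Pearson's r among 15539 genes, as a description, since all genes share the same mice and groups. For Ptgs2 they were Il1rl1 (r = 0.992), N4bp1 (0.989), Tpm3 (0.982), Smox (0.979) and Mtmr7 (0.978). For Ptges they were Inhba (r = 0.98), Plau (0.976), Kdm6b (0.965), Mmp13 (0.96) and, in the fifth place, Ptgs2 itself (0.958). Seen from Ptgs2, Ptges ranked 57. For Hpgd they included Il17re (r = 0.991), Ank (0.99), Acad10 (0.984) and Aldh1b1 (0.982), and the correlation of Hpgd with Ptgs2 was -0.899. For Ptgs1 they were Efemp2 (r = 0.98), Pitpna (0.98), Ppm1l (0.978), Ostm1 (0.978) and Nid1 (0.977), with Ptger2 at rank 32 (0.967).

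The rest of the prostanoid pathway was followed in a list of 33 further genes, 31 of them with a probe and 28 tested, covering other phospholipases, synthases, reductases, transporters and receptors. On DSS 7 of 28 rose and 7 fell in Flox, beside 24.4% and 28.2% of all probes, and 6 rose and 5 fell in GR iKO, beside 22% and 22.5%, so these shares were near those of the whole array. The median was 0.20 and 0.08, beside -0.09 and -0.02 over all probes. The 5 with the largest changes among those called in both genotypes were spread over the steps. Ptgir, the prostacyclin receptor, rose by 1.87 ± 0.20 in Flox (adjusted p = 1.34e-05) and by 1.88 ± 0.20 in GR iKO (adjusted p = 2.21e-05), alongside its synthase Ptgis. Ptger3, the EP3 receptor, rose by 1.96 ± 0.22 in Flox (adjusted p = 2.29e-05) and by 0.80 ± 0.22 in GR iKO (adjusted p = 0.0119). The Ptger3 responses differed by -1.16 (adjusted p = 0.0918). A second Ptger3 probe gave the same directions and calls with DSS, but its responses differed by only -0.73 (adjusted p = 0.366). Hpgds, a prostaglandin D2 synthase, fell by 1.46 ± 0.47 in Flox (adjusted p = 0.0191) and by 1.42 ± 0.47 in GR iKO (adjusted p = 0.0262). With normexp both calls of Hpgds were lost (-0.46, adjusted p = 0.131, and -0.56, adjusted p = 0.097). Its call in Flox was also lost without Flox DSS replicate 1 (-1.10, adjusted p = 0.0957), and that in GR iKO with slide (adjusted p = 0.0546) or replicate (0.0525) as a block and without GR iKO water replicate 2 (0.0671) or GR iKO DSS replicate 1 (0.108) or 4 (0.118). Ptger3 lost its call in GR iKO without GR iKO DSS replicate 3 (adjusted p = 0.0546) and with quality weights (0.0728).

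The secreted phospholipase gene Pla2g10 fell by 1.81 ± 0.37 in Flox (adjusted p = 0.00153) and by 1.09 ± 0.37 in GR iKO (adjusted p = 0.031). The call of Pla2g10 in GR iKO was lost without GR iKO water replicate 2, 3 or 4 or GR iKO DSS replicate 1 or 4 (adjusted p from 0.061 to 0.115), with the smallest difference, -0.86, without GR iKO DSS replicate 1. Pla2g7, which encodes platelet-activating factor acetylhydrolase, rose by 0.64 ± 0.24 in Flox (adjusted p = 0.0435) and by 1.71 ± 0.24 in GR iKO (adjusted p = 0.000175). The Pla2g7 responses differed by 1.07 (adjusted p = 0.129), and its call in Flox was lost in 13 of 25 alternatives, among them leaving out Flox water replicate 1, 2 or 3, Flox DSS replicate 1 or 2, GR iKO water replicate 3 or 4 or GR iKO DSS replicate 4 (adjusted p from 0.052 to 0.169). Between genotypes 0 of the 28 genes passed limma's adjusted test on water, on DSS or in the difference of responses, and 0, 5 and 5 of them had an unadjusted p under 0.05, beside 3.04%, 16.2% and 19.2% of all probes. These counts of 0 depend on the setting. With spike-in scaling 7 were called on DSS and 15 in the difference of responses, all higher in GR iKO. Of all 29523 probes, that setting called 4960 higher and 63 lower on DSS. In the difference of responses it called 18706 higher and 8 lower, so nearly all calls went that way. With the shared spread 2 of the list were called higher and 3 lower on DSS, beside 1901 and 2002 probes.

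The leukotriene and lipoxygenase genes, which draw on the same arachidonic acid, were all 18 tested. On DSS 6 of 18 rose and 3 fell in Flox, with a median of 0.11. In GR iKO 6 rose and 5 fell, with a median of 0.15. Both are to be read against the same shares and medians of all probes. Among the falls, Lta4h changed by -1.04 and -0.90 (Flox first, limma adjusted p of 3.8e-05 and 0.000166). Alox12 changed by -1.32 and -1.21 (0.00457 and 0.00919). Alox5 was called lower only among GR iKO mice (-0.73, adjusted p = 0.0156). The 5 genes named next were chosen for the largest change among those called in both genotypes, and all 5 rose. Alox5ap, which presents arachidonic acid to 5-lipoxygenase, rose by 1.38 ± 0.23 in Flox (adjusted p = 0.000354) and by 2.16 ± 0.23 in GR iKO (adjusted p = 2.47e-05). Ltb4r1, the high-affinity leukotriene B4 receptor, rose by 1.97 ± 0.31 (adjusted p = 0.000244) and 2.93 ± 0.31 (adjusted p = 2.42e-05), and Ltb4r2, the low-affinity one, by 0.77 ± 0.30 (adjusted p = 0.0492) and 1.86 ± 0.30 (adjusted p = 0.000443). The call of Ltb4r2 in Flox was lost in 15 of 25 alternatives, among them leaving out Flox water replicate 1, 2 or 3, Flox DSS replicate 1 or 2, GR iKO water replicate 2 or GR iKO DSS replicate 3 or 4 (adjusted p from 0.0529 to 0.206). Ggt5, a gamma-glutamyl transferase that acts on leukotriene C4, rose by 2.38 ± 0.16 (adjusted p = 7.39e-07) and 2.36 ± 0.16 (adjusted p = 1.3e-06). Ggt1, a related transferase, rose by 2.97 ± 0.74 (adjusted p = 0.00509) and 2.31 ± 0.74 (adjusted p = 0.0232). In Flox the rise of Ggt1 was 1.89 without Flox DSS replicate 4 and 3.77 without Flox DSS replicate 2. In GR iKO its call was lost without GR iKO DSS replicate 3 (adjusted p = 0.0827) or GR iKO water replicate 2 (0.0554) or 4 (0.0574), with the replicate block (0.0521) and with quality weights (0.0827). Between genotypes 0 of the 18 passed limma's adjusted test on water, on DSS or in the difference of responses, and 0, 3 and 5 had an unadjusted p under 0.05, all of them higher in GR iKO, with the 3 of 18 near the 16.2% of all probes. With spike-in scaling 5 were called on DSS and 11 in the difference of responses, all higher in GR iKO. These stand beside 4960 and 18706 of all 29523 probes called higher in that setting, and 63 and 8 called lower. With the shared spread 3 of the list were called higher on DSS, beside 1901 probes.

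**Figure D4:**
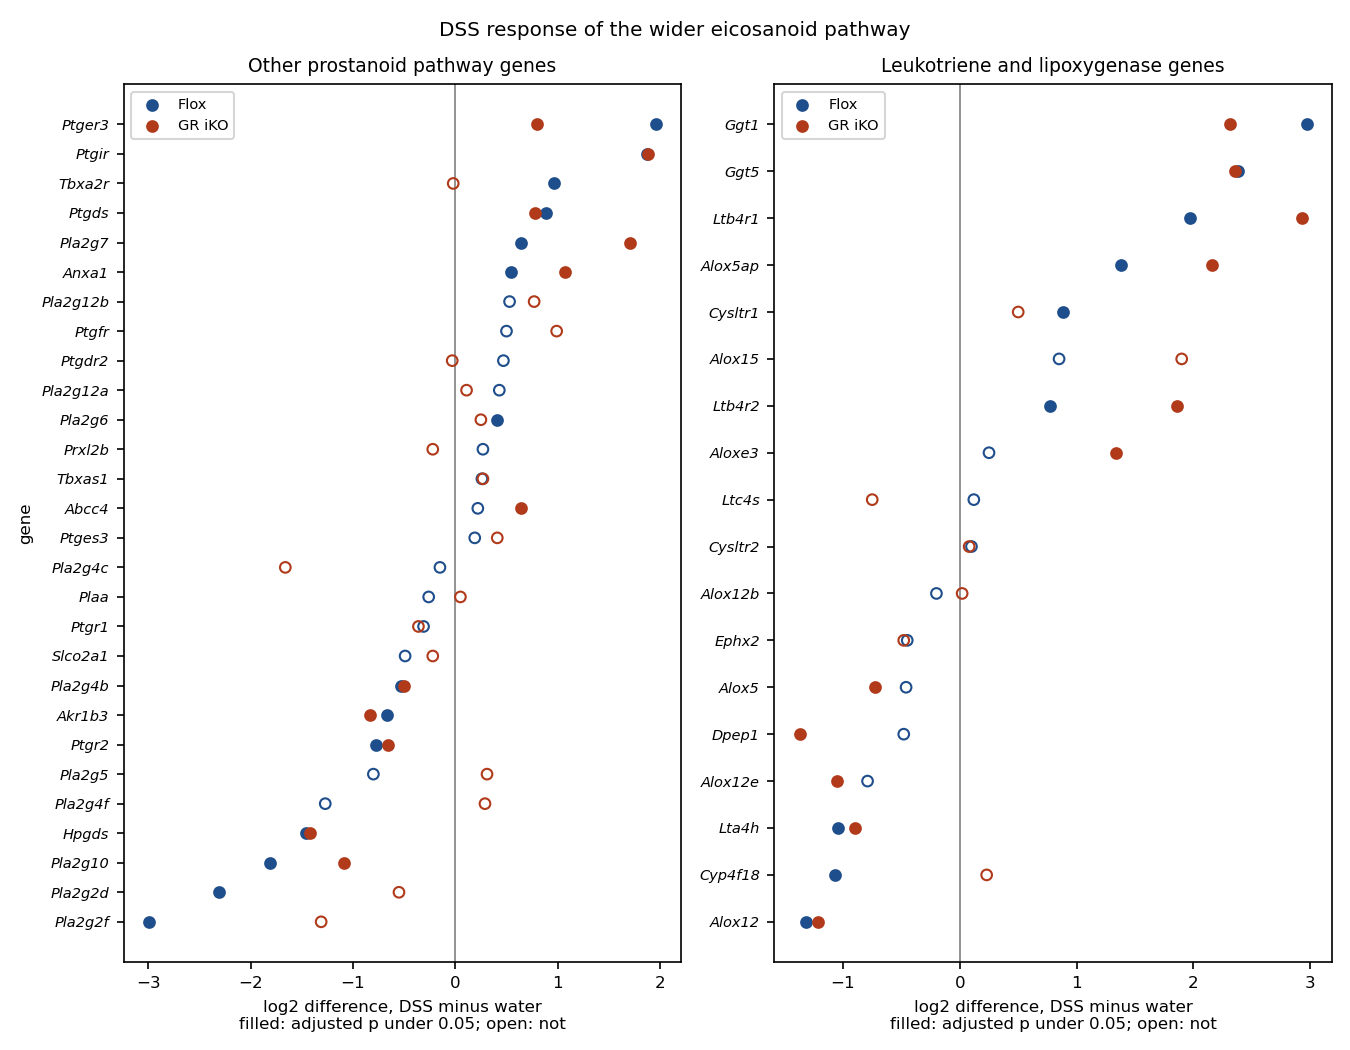
Difference between DSS and water (x axis, log2 units) in both genotypes for the 28 other prostanoid genes and the 18 leukotriene and lipoxygenase genes (y axis, ordered by the Flox value), with filled points for an adjusted p under 0.05. In Flox the receptors Ptger3 and Ptgir lead the rises in the first panel and the transferases Ggt1 and Ggt5 with the receptor Ltb4r1 those in the second, whereas in GR iKO Ptger3 (0.80) lies below Ptgir (1.88) and Pla2g7 (1.71).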

How the data were processed

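Total RNA of whole colons (500 ng per array) was hybridised to 14 Agilent 1-colour arrays on 4 slides scanned on 1 day. The authors extracted spot signals with Agilent Feature Extraction 12.0.0.7, and the deposited files hold processed intensity on a linear scale, background-subtracted, with low values raised to a positive surrogate. The deposited value table holds log2 values of the same arrays. It correlated with log2 intensity at 0.999 or more, every column had a median of 6.05, and neither its scaling nor its tests are given in the sources used here. Partek 6.6 is named in the submitters' processing notes without a role. Groups came from the sample labels, with 1 mouse per array.

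Here, 1639 of 45018 spots were controls and left out, spots that Feature Extraction marked as non-uniform or outlying were treated as missing, and spots of a probe were averaged, giving 41174 probes. The main value was log2 processed intensity after subtracting each array's 75th percentile. Probes were tested if well above background on at least 3 arrays (29523 probes). Symbols came from RefSeq accessions matched without versions to a GRCm38.p6 gene table (28223 of 29245 matched), while the array grid was drawn on mm9, so no probe coordinates are given. The probe with the highest mean stood for a gene. The 4 groups were modelled in limma 3.58.1 (lmFit, eBayes, two-sided) under R 4.3.3, with Benjamini-Hochberg adjustment over all probes. DSS responses and their difference between genotypes used all 14 arrays, and GR iKO was compared with Flox within the 8 water and the 6 DSS arrays, because the spread differed. The number of arrays limits the precision. The fit was tested on simulated data.

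Alternatives were quantile normalization, normexp background correction with an offset of 50, scaling to 8 of 10 spike-in probes, the deposited table, no filter or a filter on all arrays, slide or replicate blocks, quality weights, gene means, another spread and leaving out each array. Normexp used median spot and background signals, since the mean spot signal was not among the columns used here. The 9 measured members are named in each comparison (Ptger1 had no probe), Nr3c1 as the targeted gene, up to 5 genes per further list with the largest change among those called in both genotypes, and the 5 genes most like Ptgs2, Ptges, Hpgd and Ptgs1, of which 1 is not reported here. Members and lists were chosen with earlier results of these data known. Mast cell markers, of which 4 of 7 were tested, gave 2 higher and 1 lower with DSS in Flox and none in GR iKO.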

Additional observations from a re-analysis of the deposited data

Results flagged for a closer look

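The DSS response of Ptges differed between genotypes by 1.99 log2 units in the test of the difference itself (limma, adjusted p = 0.0413), higher in GR iKO, where all 3 mice on DSS stood above all 3 Flox mice on DSS. This call was lost in 13 of 25 alternatives, among them separate variance weights for water and DSS arrays (adjusted p = 0.11). In the 18 groups of 4 mice checked for a single value far from the others (9 genes, both water groups), 0 had one.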

How the results depend on the processing

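The counts of members called with DSS stayed within 7 to 8 in Flox and 8 to 9 in GR iKO when each array was left out, and those between genotypes stayed at 0 on water and 0 on DSS. With spike-in scaling 6 were called with DSS in Flox and 7 in GR iKO, with directions turned in Flox, beside 26431 and 16970 of 29523 probes. Between genotypes on DSS, 2 members were called with spike-in scaling, beside 5023 of 29523 probes, and 2 with the shared spread, beside 3903. For the difference of responses, 2 were called with quantile normalization (beside 172 of 29523 probes), normexp (30), the deposited table (142) and quality weights (2664). With the filter on all arrays 2 were called, beside 279 of 23479 probes. With spike-in scaling 3 were called, beside 18714 of 29523 probes. With no filter, slide as a block, the replicate block or separate variance weights 0 were called. When each array was left out 0 to 2 were called, beside 0 to 2221 probes. The cause was not tested. Between genotypes within a treatment, same-numbered mice deviated together unevenly (correlations of 0.13, 0.07, -0.08 and 0.31 on water and 0.18 and -0.03 on DSS). This does not show that the numbers pair the mice. With so few mice pairing is not excluded either, and same-numbered water and DSS mice were not compared. The replicate block ended the calls of Ptges in Flox (0.47, adjusted p = 0.111) and in the difference of responses (2.07, adjusted p = 0.114), where Ptgs2 had 2.46 (adjusted p = 0.114). It gave 2.55 and 2.11 for Ptgs2 and Ptges between genotypes on DSS (adjusted p = 0.369 for both).

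Directions turned mainly with spike-in scaling, which moved the median of all probes from -0.09 to -2.44 (DSS in Flox), from -0.02 to -0.98 (DSS in GR iKO), from 0.03 to 1.25 (genotypes on DSS) and from 0.03 to 1.43 (difference of responses). With it, DSS in Flox gave -0.96 for Ptgs1, -0.53 for Ptgs2, -1.84 for Ptges, -0.31 for Ptgis, -0.40 for Ptger3, -0.49 for Ptgir, -1.72 for Pla2g7, -0.38 for Ltb4r1, -0.98 for Alox5ap and -1.59 for Ltb4r2. DSS in GR iKO gave -0.16 for Ptger3. Genotypes on water gave -0.09 for Pla2g4a, -0.14 for Ptgs2, -0.05 for Ptges2, -0.10 for Hpgd, -0.08 for Ptger2 and -0.02 for Ptger4. Genotypes on DSS gave 0.83 for Ptgs1, 1.07 for Ptges2, 0.66 for Ptgis, 0.77 for Hpgd, 0.85 for Ptger2, 1.18 for Ptger4 and 0.39 for Nr3c1. The difference of responses gave 1.05 for Ptgs1, 1.12 for Ptges2, 0.87 for Ptgis, 0.87 for Hpgd, 0.94 for Ptger2 and 1.21 for Ptger4.

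The other turns were of small values that passed no test. On water they were Ptgs2 with normexp (-0.01) and, with quality weights, Ptges (0.02) and Hpgd (-0.03). On DSS between genotypes they were Hpgd (0.26) and Ptger4 (0.16) with slide as a block, Ptges2 (0.06) and Ptger4 (0.06) with the replicate block, and Ptges2 (0.01) and Ptger4 (0.01) with quality weights. Leaving out each array in turn, the difference on water ranged across 0 for Ptgs1 (-0.14 to 0.03), Ptgs2 (-0.11 to 0.26), Ptges (-0.16 to 0.02), Ptgis (-0.15 to 0.05), Hpgd (-0.04 to 0.18) and Ptger2 (-0.03 to 0.19), and on DSS for Ptges2 (-0.37 to 0.06) and Ptger4 (-0.16 to 0.09), with Hpgd reaching 0 (-0.73 to 0.00).

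Counts over lists and over all probes moved too. With spike-in scaling, the prostanoid list had 0 higher and 26 lower with DSS in Flox and 0 higher and 13 lower in GR iKO, and the leukotriene list 0 and 13 in Flox and 4 and 9 in GR iKO. In the other settings the prostanoid counts ran from 4 to 8 higher and 6 to 10 lower in Flox and from 4 to 7 and 2 to 6 in GR iKO, and the leukotriene counts from 4 to 9 higher and 2 to 7 lower in Flox and from 5 to 8 and 3 to 6 in GR iKO. Apart from spike-in scaling and the shared spread, no list gene was called between genotypes on DSS, and in the difference of responses up to 2 were called higher and 2 lower in the prostanoid list and up to 2 and 1 in the leukotriene list. For the difference of responses, the 33 probes called became 18714 with spike-in scaling and 0 to 2664 in the other settings. Between genotypes the 0 probes called on DSS became 5023 with spike-in scaling and 3903 with the shared spread, and the 3 called on water became 0 to 4.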
